A study of Homo sapiens with 6 samples.

Results

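The Toll-like receptors of the human leukaemia line MOLM-13 were followed in RNA sequencing of cells kept for 20 h with 5 µM DB2115 or with vehicle, 0.001% DMSO. The family was taken by symbol, TLR1 to TLR10, and all 10 members were found among the 58381 gene identifiers of the count table. MOLM-13 is an established acute myeloid leukaemia line with an MLL-AF9 fusion and a FLT3 internal tandem duplication and both groups share this background and were grown in RPMI medium with 10% serum. DB2115 is given only by this code name, and the series title names the transcription factor PU.1. The labels list 3 samples per group, but 1 column per group equalled columns A and B added together for 85.6% of the detected genes in vehicle and 86.3% with DB2115, so it was treated as pooled, and comparisons rest on libraries A and B (n = 2 per group). Whether these libraries stem from separate cultures is not stated in the labels, and p-values therefore reflect only library-to-library spread, which may be technical.

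Toll-like receptors are membrane proteins that bind conserved microbial molecules through a leucine-rich ectodomain and signal through a cytoplasmic TIR domain. TLR2 pairs with TLR1 or TLR6 at the cell surface to bind bacterial lipoproteins, TLR4 binds lipopolysaccharide with MD-2 and CD14, and TLR5 binds flagellin. TLR3, TLR7, TLR8 and TLR9 bind nucleic acids in endosomes, and TLR10 is a relative of TLR1 and TLR6. Monocytes and macrophages are known for surface receptors, whereas plasmacytoid dendritic cells and B cells are known for TLR7 and TLR9.

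Total counts ran from 36547900 to 42446253 per library. Levels are in CPM (counts-per-million, after TMM scaling), on which 3 counts equal 0.0725 to 0.0854. All 10 myeloid markers checked, among them SPI1, CD33 and CD68, had enough counts to be tested. By the test given below, 6 were called higher with DB2115 and 3 lower (PTPRC, FLT3 and LYZ). Of all tested genes 32.7% were called higher and 31.3% lower. The summed level of the myeloid list was 1373 to 1401 CPM in vehicle and 1185 to 1255 CPM with DB2115. KIT had only 5 counts in vehicle and 114 with DB2115, and was tested only because of its DB2115 counts. Of other lineages, CD2 and CLEC4C, defining genes of T cells and plasmacytoid dendritic cells, had no count in any library, and the B-cell gene MS4A1 had 2 counts in vehicle and 1 with DB2115. Other genes on these lists were present. The summed level of the B-cell list was 50.2 to 52.0 CPM in vehicle and 27.1 to 29.7 CPM with DB2115, that of the T-cell list 4.18 to 4.33 and 19.6 to 23.5 CPM, that of the plasmacytoid dendritic-cell list 48.9 to 52.2 and 83.0 to 84.5 CPM, and that of the epithelial list 2.59 to 4.04 and 64.7 to 67.0 CPM. In these lists 1 of 5, 3 of 5, 2 of 5 and 4 of 5 genes stayed under 1 CPM in all libraries, and the part of such genes in the results below was not tested.

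With DB2115, TLR4 went from the fourth to the first place among Toll-like receptor transcripts per length, and TLR1, TLR2 and TLR6 rose with it. TLR5 and TLR9 were also higher, at levels under 1 CPM, and no member was lower by the test. Of the 10 members, 6 were called higher and 0 lower, 2 were tested and not called, and 2 lay below the filter on low counts (edgeR quasi-likelihood test, Benjamini-Hochberg adjusted p under 0.05 over 17219 genes). Of all tested genes, 32.7% were called higher and 31.3% lower, 64.1% in either direction. Only TLR1, TLR2, TLR4 and TLR6 had at least 10 counts in both vehicle libraries, and all 4 were called higher, against 28.9% of the 15152 tested genes with such vehicle counts, a background chosen after the values were seen. The other 4 tested members passed the filter only through their DB2115 counts and so had to be higher there. DESeq2 and limma-voom called no member lower either, but they were run on the same tested genes. They thus left out TLR3, the only member with fewer counts under DB2115, and do not bear on it. Without a filter the unadjusted edgeR p of TLR3 was 0.310.

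**Figure D1:**
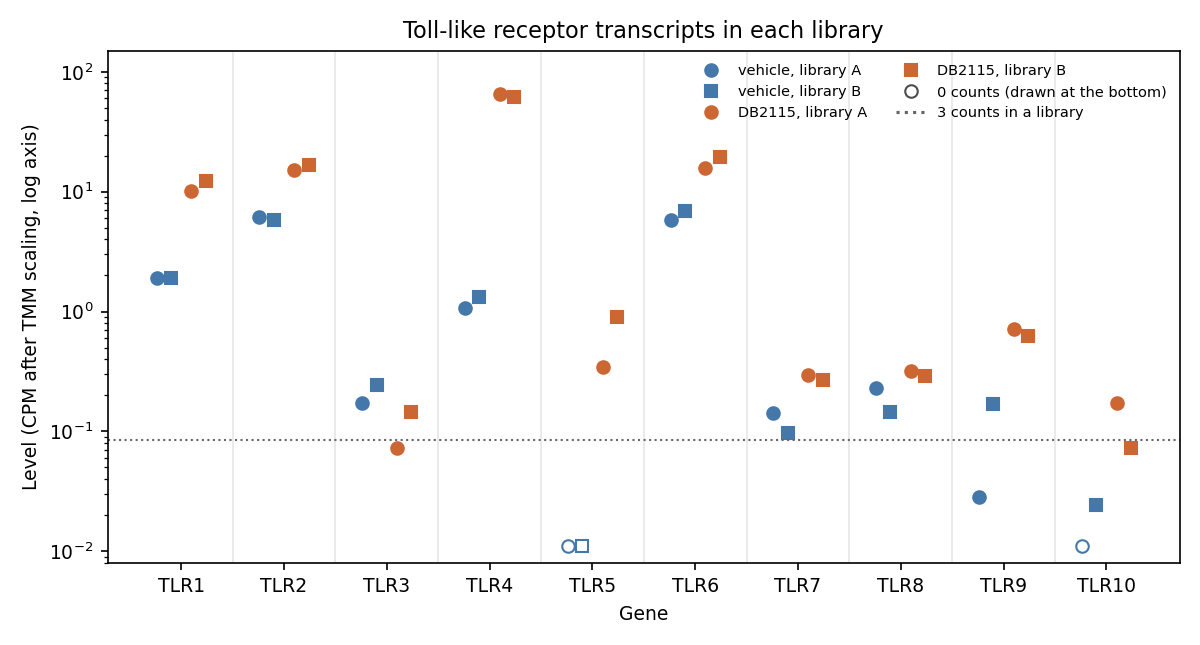
Level of each Toll-like receptor in the 4 libraries, in CPM after TMM scaling on a log axis; blue marks are vehicle, orange marks DB2115, circles library A and squares library B, and open marks are libraries with 0 counts drawn at the bottom. TLR4 stands at 65.2 and 61.8 CPM with DB2115, above every other member; the dotted line is 3 counts in the library where they weigh most, 0.0854 CPM. Fewer than 3 counts lie behind the vehicle points of TLR5 and TLR10 and the vehicle library A point of TLR9.

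Sequence around the RefSeq starts of these genes was read (build GRCh38.p14) because the series title names PU.1. This ETS factor binds GGAA cores and prefers GAGGAAGT. Windows of 300 bases, 250 before the RefSeq start and 50 from it on, were found for 7 members, TLR2, TLR3, TLR4, TLR5, TLR6, TLR8 and TLR9. Each run of 30 bases below is written 5′ to 3′ on the strand that reads GGAA, with matches of GAGGAA or GGAAGT in capitals, and the runs of the members called higher are shown because these are the members whose levels changed.
TLR4 (-224, chr9:117704166-117704195, minus strand): agaaacagcaaGAGGAAgctagttggcttt
TLR4 (-171, chr9:117704219-117704248, minus strand): ttgtcacaggaGAGGAAGTtagaagaagaa
TLR4 (-99, chr9:117704291-117704320, minus strand): ctaaagggtgaGAGGAAGTgaaagcggcaa
TLR4 (-38, chr9:117704352-117704381, plus strand): tggggcggctcGAGGAAgagaagacaccag
TLR9 (-134, chr3:52225763-52225792, minus strand): gggagtggaaaGAGGAAggggtgaaggagc
TLR9 (-7, chr3:52225636-52225665, plus strand): ctcagagaataGAGGAAGTaagatttttat
TLR6 (-195, chr4:38856996-38857025, plus strand): ctaattcgtgtGAGGAAgcaacttacaaac
TLR2 (-15, chr4:153684252-153684281, minus strand): ctgcccgggactaGGAAGTaagcaaaaggg
TLR5 (-184, chr1:223143416-223143445, minus strand): cgatagacactgtGGAAGTctgcagagacc

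The number after each name is the position of the leftmost base of GGAA, or of its complement, on the gene's strand, counted from the RefSeq start at 0. The TLR4 window held 4 matches of GAGGAA, a number reached or passed by 32 of 35116 promoter windows of the same length (0.0911%), and 2 of them extended to GAGGAAGT. TLR9 held 2 matches of GAGGAA, 1 of them GAGGAAGT, and TLR6 held 1. On both strands GAGGAA was found in 27.9% of all windows, GAGGAAGT, which contains it, in 2.59%, and GGAAGT, which overlaps GAGGAAGT, in 22.8%. TLR2 and TLR5, which rose, held GGAAGT without GAGGAA, as did TLR3 and TLR8, which were not called. TLR2 and TLR5 each also held 1 match of an NF-kB pattern (GGG, any 3 bases, TTCC) found in 6.52% of windows. An interferon-factor pattern (GAAA, any 2 bases, GAAA; 3.57% of windows) was found in TLR3 alone among the 7, and the AP-1 pattern TGANTCA (7.71%) and TATAAA (11.5%) in TLR9 alone. These matches describe the letters only, since binding was not measured here.

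**Figure D2:**
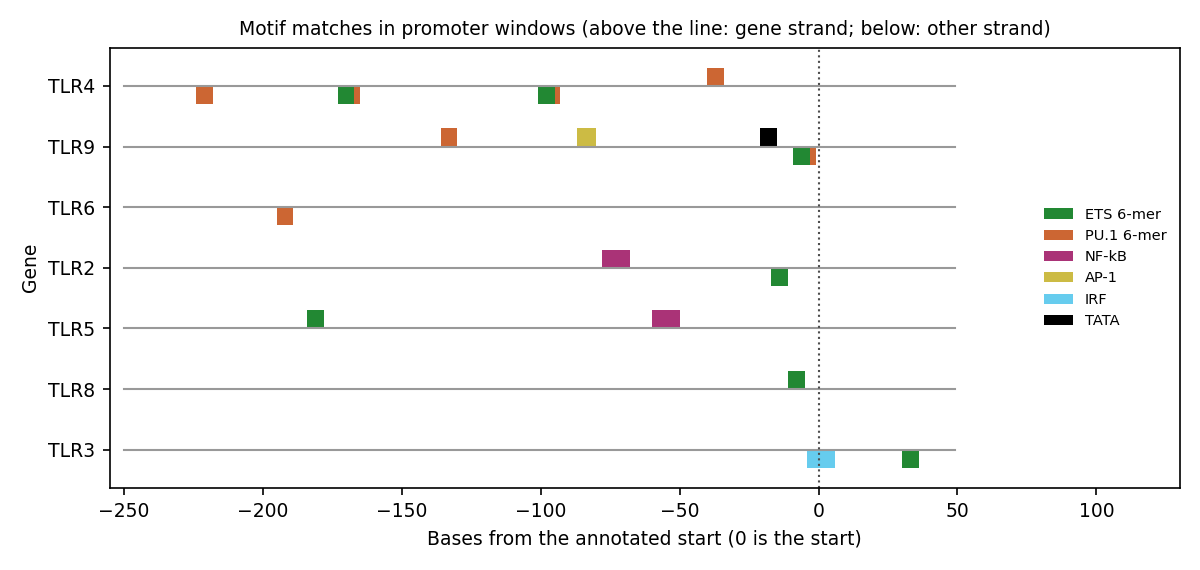
Position of motif matches in the 7 promoter windows, in bases from the RefSeq start; bars above a line lie on the gene's strand and bars below on the other strand, and orange marks GAGGAA, green GGAAGT (drawn over orange where they overlap), purple NF-kB, yellow AP-1, light blue the interferon-factor pattern and black TATAAA. TLR4 has 4 matches in orange between -224 and -35, while TLR2, TLR3, TLR5 and TLR8 have none.

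The windows differ in base composition and in their place on the gene. The share of A and T was 65.3% for TLR6, 61.7% for TLR8, 59.7% for TLR3 and 51.7% for TLR4, against 42.3% for TLR9, 31.7% for TLR5, 27.3% for TLR2 and a median of 41.3% over all windows. GENCODE release 29, used here for loci, places the start of TLR4 228 bases upstream of the RefSeq start, and that of TLR2 210 bases and that of TLR9 518 bases upstream. By that annotation exons of the gene hold 278 of the 300 bases of the TLR4 window, 260 of TLR2 and all 300 of TLR9. In contrast, 250 bases of the TLR6 window and 216 of the TLR5 window lie upstream of the gene. GENCODE starts TLR1 at the same base as TLR6, 38856817 on the minus strand, so the TLR6 window lies at that TLR1 start as well.

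TLR4, the lipopolysaccharide receptor, showed the largest rise among the members with vehicle counts above the filter. TLR4 (ENSG00000136869.14) lies on chromosome 9, 117704175 to 117724730, on the plus strand. It had 38 and 54 counts in vehicle libraries A and B and 2669 and 2559 counts in DB2115 libraries A and B. The DB2115 libraries lay far above both vehicle libraries and close to each other. The level went from 1.19 ± 0.160 to 63.5 ± 2.41 CPM (SD, n = 2), a log2 fold change of 5.72 (SE 0.11, edgeR adjusted p = 1.83e-12). Of 17219 tested genes, 286 (1.66%) had a log2 fold change as large or larger, whereas the median of all tested genes was 0.03. The summed counts gave a ratio of 52.8 with an exact 95% counting interval of 42.9 to 65.6. Such intervals cover counting error only.

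The lipoprotein receptors TLR2, TLR1 and TLR6 rose by smaller factors. TLR2 (chromosome 4, 153684070 to 153705702, plus strand), the shared partner of the surface heterodimers, stood at 6.12 and 5.76 CPM in vehicle and at 15.1 and 16.8 CPM with DB2115. The groups did not overlap, and the log2 fold change was 1.43 (SE 0.12, edgeR adjusted p = 2.18e-07). TLR6 (chromosome 4, 38823715 to 38856817, minus strand), its partner for diacylated lipoproteins, stood at 5.81 and 6.90 CPM in vehicle and at 15.9 and 19.3 CPM with DB2115. Both DB2115 libraries were again the higher ones, with a log2 fold change of 1.46 (SE 0.13, edgeR adjusted p = 5.43e-07). TLR1 (chromosome 4, 38790677 to 38856817, minus strand), its partner for triacylated lipoproteins, stood at 1.91 CPM in both vehicle libraries and at 10.1 and 12.3 CPM with DB2115. That was a log2 fold change of 2.55 (SE 0.17, edgeR adjusted p = 2.63e-08), or 5.86-fold, beside 2.69-fold for TLR2 and 2.75-fold for TLR6. Groups that did not overlap, with DB2115 higher, were found in 42.0% of all tested genes, and with DB2115 lower in 39.4%.

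Ratios within a library do not depend on the scaling between libraries. Per length, the TLR6 to TLR2 ratio was 0.820 and 1.04 in vehicle and 0.911 and 0.988 with DB2115, so the DB2115 values fell between those of vehicle. The TLR1 to TLR2 ratio was 0.358 and 0.382 in vehicle and 0.769 and 0.843 with DB2115, a 2.18-fold change. For TLR4 to TLR2 the ratio was 0.0695 and 0.0892 in vehicle and 1.70 and 1.44 with DB2115, a 19.9-fold change. These 3 ratios, and 3 others computed with them, carry no p, since an exact two-sided permutation test of 2 against 2 libraries cannot give less than 0.333.

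**Figure D3:**
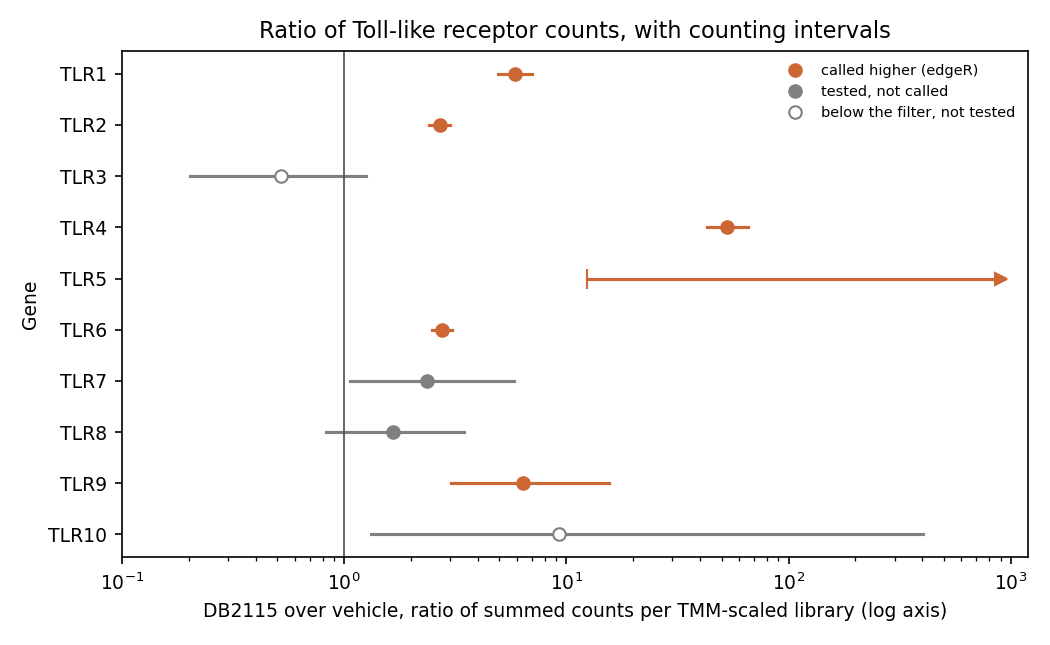
DB2115 over vehicle as the ratio of summed counts per TMM-scaled library, on a log axis, with exact 95% counting intervals; orange members were called higher, filled grey ones tested and not called, and open ones lay below the filter. TLR4 stands at 52.8, TLR5 has only a lower limit because vehicle had 0 counts, and the interval of TLR3 spans 1.

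TLR5 and TLR9 were higher at low levels. TLR5 (chromosome 1, 223109406 to 223143282, minus strand), the flagellin receptor, had no count in either vehicle library and 14 and 37 counts with DB2115. The DB2115 libraries differed from each other, at 0.342 and 0.894 CPM, and both lay above vehicle. The edgeR adjusted p of 0.000312 belongs to edgeR's own log2 fold change of 7.62, which depends on its prior count. Against a floor of 3 counts over the vehicle group the level was 15.8-fold higher, a ratio that was not tested. That value leaves out the counting error of the DB2115 counts, and the exact 95% counting interval of the ratio began at 12.4. Against the same floor it was 8.53-fold without vehicle library A and 7.25-fold without vehicle library B, with intervals from 6.69 and 5.69. As both vehicle libraries had 0 counts, these lower values reflect only the smaller vehicle depth that remained. It was 22.8-fold without DB2115 library A and 8.72-fold without DB2115 library B, with intervals from 17.6 and 6.20. Without DB2115 library B, TLR5 fell below the filter and was not tested. TLR9 (chromosome 3, 52221080 to 52226163, minus strand), the receptor for unmethylated CpG DNA, had 1 and 7 counts in vehicle and 29 and 26 with DB2115. Its level was 0.0285 and 0.170 CPM in vehicle and 0.709 and 0.628 CPM with DB2115, with a log2 fold change of 2.65 (SE 0.63, edgeR adjusted p = 0.00249). The size rests on vehicle library B, and the log2 fold change was 4.39 without it (adjusted p = 0.0127) and 1.95 without vehicle library A (adjusted p = 0.0278).

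The other endosomal receptors and TLR10 gave no call. TLR7 (chromosome X, 12867083 to 12890380, plus strand), a receptor for single-stranded RNA, had 5 and 4 counts in vehicle and 12 and 11 with DB2115 (log2 fold change 1.22, SE 0.63, edgeR adjusted p = 0.109). TLR8 (chromosome X, 12906620 to 12923169, plus strand), its neighbour and relative, had 8 and 6 counts in vehicle and 13 and 12 with DB2115 (log2 fold change 0.71, SE 0.58, edgeR adjusted p = 0.303). At this depth the counting intervals of their ratios were wide, 1.06 to 5.83 for TLR7 and 0.829 to 3.45 for TLR8. TLR3 (chromosome 4, 186069152 to 186088069, plus strand), the receptor for double-stranded RNA, had 6 and 10 counts in vehicle and 3 and 6 with DB2115. In CPM its groups did not overlap, at 0.171 and 0.242 against 0.0733 and 0.145, but the counting interval of its ratio ran from 0.203 to 1.25. It was the only member with fewer counts under DB2115. TLR10 (chromosome 4, 38772239 to 38782990, minus strand) had 0 and 1 counts in vehicle and 7 and 3 with DB2115, a ratio of 9.28 with an interval of 1.32 to 403. Without a filter on low counts, where 18.7% of 31249 genes were called higher and 17.8% lower, the edgeR adjusted p was 0.521 for TLR3 (log2 fold change -0.92) and 0.219 for TLR10 (2.95).

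Compared per length, the family changed its order. Levels were set on CPM per kilobase of merged exons, which for TLR4 covers 13272 bases and for TLR9 3870 bases. In vehicle TLR2 (1.14 ± 0.0484) and TLR6 (1.05 ± 0.128) led and did not differ beyond their spread, followed by TLR1 (0.421 ± 0.000910) and TLR4 (0.0900 ± 0.0120). TLR8, TLR3, TLR9 and TLR7 followed at 0.0428 to 0.0230, then TLR10 at 0.00287, with TLR5 at 0. With DB2115 TLR4 led at 4.79 ± 0.182, followed by TLR2 (3.06 ± 0.242), TLR6 (2.91 ± 0.397) and TLR1 (2.47 ± 0.355), whose libraries overlapped in range from one to the next. TLR9 came next at 0.173 ± 0.0147, and TLR5, TLR8, TLR7, TLR10 and TLR3 lay between 0.0796 and 0.0162. The sum over the 10 genes was 2.83 ± 0.111 in vehicle and 13.6 ± 0.830 with DB2115. TLR4 made up 2.96% and 3.39% of that sum in vehicle libraries A and B and 37.6% and 32.7% with DB2115, while TLR2 went from 42.7% and 38.0% to 22.1% and 22.7%. If the longest transcript is used in place of merged exons, TLR4 still led with DB2115 (4.94), but TLR1 (3.93) then stood above TLR2 (3.79) and TLR6 (2.99).

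**Figure D4:**
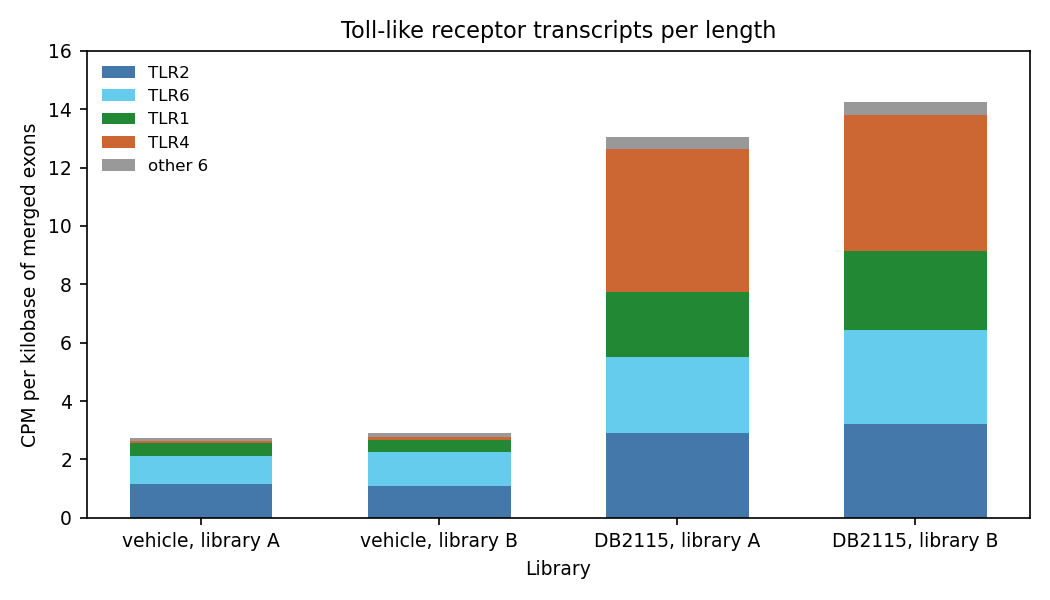
Toll-like receptor transcripts in each library as CPM per kilobase of merged exons, stacked by gene, with the 6 members of lowest level joined in grey. The stacks reach 2.75 and 2.91 in vehicle and 13.1 and 14.2 with DB2115, and the orange TLR4 segment is thin in vehicle and the largest in both DB2115 libraries.

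Reads of some members cannot be assigned with certainty, because neither the counting tool nor its use of strand is given in the sources used here. TLR1 and TLR6 share a first exon of 57 bases in GENCODE, and 5.33% of the runs of 50 bases in TLR1 transcripts also occur in TLR6. TLR9 shares 86.3% of its exon bases with AC097637.1, an annotated coding gene on the same strand that had 0 counts in all 4 libraries. The level of TLR9, and its place in the order per length, may thus be affected by how reads in shared exons were counted. If such reads were left out, its level would be too low, since all 3870 exon bases were used as its length. TLR4 shares 4.20% of its exon bases with AL160272.2, which also had 0 counts. TLR2, TLR3, TLR5, TLR7, TLR8 and TLR10 share no exon bases with another gene, and TLR8-AS1, antisense to TLR8, had 2 counts in all.

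Genes within 5 kb of members were read for comparison. AC097637.2, on the strand of TLR9 and 2068 bases from it, went from 5 and 4 counts to 128 and 84 counts (log2 fold change 4.41, edgeR adjusted p = 1.74e-06). TWF2, which encodes the actin-binding protein twinfilin, lies 2447 bases away on the other side and rose from 110 and 107 to 215 and 191 CPM (log2 fold change 0.90, adjusted p = 1.16e-07). The pseudogene AC106865.1, 2890 bases from TLR2, went from 6 and 6 to 58 and 35 counts (log2 fold change 2.82, adjusted p = 0.000291), whereas RNF175 on the other side of TLR2 was not called (1.07, adjusted p = 0.104). AC097637.2 and AC106865.1 had fewer than 10 counts in each vehicle library. They passed the filter only through their DB2115 counts and so had to be higher there.

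The 3 genes nearest in pattern were found for each member with a mean of at least 1 CPM, by Euclidean distance of log2(CPM + 0.5) over the 4 libraries after centring. For TLR4 they were TJP3 (distance 0.08), OLFML3 (0.17) and FAM83A (0.19). For TLR2 they were SH3PXD2A, CELSR2 and UBE2F (0.02 to 0.03), for TLR6 S100A16, MTMR3 and MSRB2 (0.03 to 0.09), and for TLR1 FRG2FP, EXOC3L4 and MTURN (0.04 to 0.07). With 4 libraries such a distance mostly ranks genes by the size of the difference between the groups on this scale. The added 0.5 shrinks differences at low levels, so matched genes need not share a fold change. FRG2FP, EXOC3L4 and FAM83A stood at 0 CPM in both vehicle libraries, and S100A16 at 0 and 0.0727 CPM. TJP3 (0.114 and 0.194 CPM) and OLFML3 (0.0854 and 0.0727 CPM) were also low in vehicle. MTURN, MTMR3, MSRB2 and the 3 genes of TLR2 stood above 1 CPM in both vehicle libraries.

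Among the co-receptors, chaperones and trafficking genes, CD14, the lipopolysaccharide co-receptor, stood at 0.142 ± 0.0394 CPM in vehicle. It rose to 5.34 ± 0.920 CPM with DB2115 (edgeR adjusted p = 2.36e-08, log2 fold change 5.18). LY96, which encodes MD-2 and was singled out for its role, had 6 counts in vehicle and 48 with DB2115 (log2 fold change 2.84, adjusted p = 0.00149). The TLR4 to CD14 ratio per length was 1.35 and 1.10 in vehicle and 1.55 and 1.87 with DB2115. The TLR4 to LY96 ratio was 0.579 and 0.823 in vehicle and 6.78 and 3.90 with DB2115. Both vehicle ratios rest on few counts, 11 for CD14 and 6 for LY96 over the 2 libraries, and carry no interval. With so few vehicle counts CD14 and LY96 passed the filter only through their DB2115 counts and so had to be higher there. Both are among the genes counted as risen below. SLC15A3, an endolysosomal peptide transporter, rose with a log2 fold change of 2.06, while TASL, an endolysosomal adaptor for IRF5 activation, fell with one of -5.34 and CD36, a scavenger receptor that assists TLR2, with one of -2.31. Of 16 co-receptors, chaperones and trafficking genes, 14 were tested, 5 rose and 7 fell, beside 32.7% higher and 31.3% lower of all tested genes, and the median log2 fold change was -0.19 beside 0.03. With at least 1 CPM required in 3 libraries, 3 of 11 rose.

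Among the adaptors that bind TIR domains or link them to kinases, MYD88, shared by most Toll-like receptors, stood at 51.3 ± 0.509 and 53.8 ± 1.68 CPM and was not called (log2 fold change 0.07, edgeR adjusted p = 0.391). TIRAP, which brings MYD88 to TLR2 and TLR4, rose from 3.67 ± 0.118 to 10.2 ± 0.221 CPM (log2 fold change 1.48, adjusted p = 7.30e-07), and PIK3AP1, which links receptors to PI3-kinase, rose with one of 0.74. Of 6 adaptors 2 rose and 0 fell (median 0.82), beside the same 32.7% and 31.3% of all tested genes, or 4 rose when the pooled columns were counted as libraries. LY96, MYD88 and, below, IL6, CCL2 and CXCL10 were named after their values were seen.

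Of 20 signalling kinases and ubiquitin ligases, 11 rose and 5 fell, with a median log2 fold change of 0.21. Of all tested genes 32.7% were higher, 31.3% lower and 64.1% called in either direction, and these shares also stand beside the counts of inhibitors below. Without DB2115 library B or without vehicle library B, 7 rose. IRAK2, a kinase of the Myddosome, went up from 0.466 ± 0.0949 to 3.89 ± 0.341 CPM (edgeR adjusted p = 7.65e-07, log2 fold change 3.04), and IKBKE, a kinase of the IRF3 branch, from 34.4 ± 0.0576 to 109 ± 5.30 CPM (1.67). IRAK4, the first kinase of the MYD88 branch (log2 fold change -0.70), and UBE2N, a ubiquitin-conjugating enzyme that works with TRAF6 (-0.57), fell. Of 15 inhibitors 8 rose and 3 fell (median 0.25). ZC3H12A, a ribonuclease that degrades cytokine transcripts, rose with a log2 fold change of 2.58 and the deubiquitinase CYLD with one of 2.06, whereas TNFAIP3 (-0.90) and IRAK3 (-0.38) fell.

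Of 12 transcription factors downstream of the receptors 6 rose and 2 fell (median 0.22), beside 32.7% and 31.3% of all tested genes, with JUN (2.44) and IRF5 (0.67) higher and IRF8 (-1.49) and NFKB1 (-0.87) lower. Of 26 cytokines and early targets of Toll-like receptor signalling, 25 could be matched and 15 were tested, of which 13 rose and 2 fell (median log2 fold change 1.66), beside the same shares of all tested genes. Targets with few or no vehicle counts pass the filter only if DB2115 counts are high. Among those that rose, CCL2, with 1 count in vehicle and 37 with DB2115, passed in this way. Of those that fell, CXCL10, with 43 counts in vehicle and 0 with DB2115, passed only through vehicle. TNFAIP2 rose from 68.8 ± 1.70 to 217 ± 3.86 CPM and TNF with a log2 fold change of 2.51, while the chemokine CCL5 fell with one of -1.04. IL6 had 0 counts in vehicle and 1 with DB2115, and CXCL3 and IFNB1 had no count in any library. The labels mention no added receptor ligand, and whether the receptors were stimulated was not tested.

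**Figure D5:**
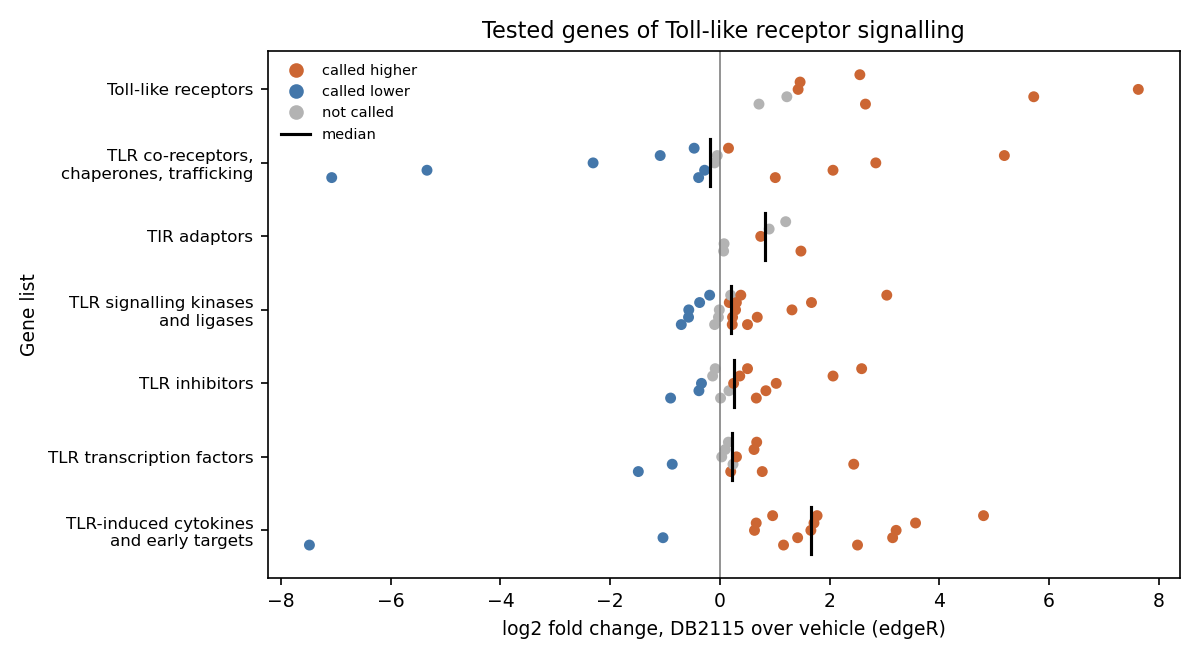
log2 fold change (DB2115 over vehicle, edgeR) of each tested gene in the Toll-like receptor family and 6 lists of its pathway; orange was called higher, blue lower and grey not called, and black lines are list medians, not drawn for the receptors. Values beyond 7 on either side belong to TLR5, CD180 and CXCL10, which have 0 or 1 counts in 1 group, and depend on edgeR's prior count.

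Calls and levels are relative to the RNA sequenced. In these bulk samples more cells that carry a transcript and more transcript per cell cannot be told apart.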

How the data were processed

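RNA of MOLM-13 cells was sequenced by a commercial service. The authors deposited raw read counts per gene, and build hg38, STAR, FastQC and DESeq2 are listed in the submitters' processing notes. The counting tool, annotation and strand setting were not given in those sources. Of 6 columns, 4 were used, and the 2 pooled columns entered only an alternative. Total counts were 36547900 to 42446253.

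Symbols were matched by Ensembl identifier, for 58216 identifiers, and loci came from GENCODE 29. SOD2 matched no single identifier. Counts were filtered with filterByExpr (minimum count 10, minimum total 15), scaled by TMM and tested in R 4.3.3 by edgeR 4.0.16 (glmQLFit, glmQLFTest) on treatment alone. Standard errors were derived from fold changes and F values. Ratios of summed counts have exact conditional intervals (scipy 1.17.1). Simulated data with known changes were used to test the fit. Alternatives covered scaling, filter, threshold, DESeq2 1.42.0, limma-voom (limma 3.58.1), a block on column letters, each library left out and all 6 columns.

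Named genes were all 10 members, up to 2 rising and 2 falling genes per pathway list with the smallest adjusted p and a mean of at least 1 CPM, the 3 genes nearest in pattern, and neighbours within 5 kb. The members and lists were chosen with earlier results of these data known.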

Additional observations from a re-analysis of the deposited data

How the results depend on the processing

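Of 14 alternatives, those that kept both libraries of each group called 6 members higher, with 2 exceptions. With 1 CPM required in 3 libraries it was 4 of 4 tested, and with the pooled columns counted as libraries 8 of 8 tested. Of all genes, 5634 were called higher as reported, 4473 with 1 CPM in 3 libraries and 6975 with the pooled columns. With the pooled columns TLR7 (log2 fold change 1.21, adjusted p = 0.00204) and TLR8 (0.70, adjusted p = 0.0427) were called, and that setting adds no independent evidence. Without DB2115 library B, TLR5 fell below the filter and was not tested. No value changed sign. The log2 fold change ran from 5.59 to 5.85 for TLR4, from 2.39 to 2.67 for TLR1, from 1.33 to 1.52 for TLR2 and from 1.31 to 1.58 for TLR6, each called under every alternative. Scaling by total counts or upper quartiles moved the median of all genes by 0.095 (log2). The labels number the samples while the columns carry letters. Same-lettered libraries hardly deviated together (correlation 0.03 over 17219 genes), and with the letter as a replicate block 6 members were called higher and 0 lower, with a log2 fold change of 5.72 for TLR4. Depth limits TLR3, TLR7, TLR8 and TLR10, which had at most 25 counts per group. With the pooled columns 5 of 15 inhibitors fell in place of 3. With 1 CPM in 3 libraries 1 of 11 tested genes of the cytokine list fell in place of 2 of 15. Of all genes, 5396 were called lower as reported, 6863 with the pooled columns and 4466 with 1 CPM in 3 libraries.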
